A study of Homo sapiens with 3 samples.

Results

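The genes described here are 9 genes that make, bind, sense and degrade retinoic acid: ALDH1A1, ALDH1A2, ALDH1A3, CRABP1, CRABP2, RARA, RARB, RARG and CYP26A1. They were chosen by gene symbol with earlier results of these data known, so their shares beside those of all genes below are descriptions only. The members are 9 of the 58735 genes in the count table. Of these, 8 reached the minimum of 10 counts over the 3 libraries that was set for a gene to be compared, and CRABP1 did not. RNA-seq of total RNA was performed on stable lines of HCT116, a human colorectal carcinoma cell line. In all lines endogenous TCF7L1 was depleted with the short hairpin shTCF7L1-2, and each line carried a doxycycline-inducible (Dox) cassette, introduced by lentivirus under puromycin selection. The cassette was empty (vector), held an shRNA-resistant TCF7L1 cDNA (TCF7L1), or held TCF7L1 with mutations in its DNA-binding domain (TCF7L1-MUT). All lines received Dox at 1 µg/ml for 18 h. Each condition was 1 library from 1 stable line, so no comparison below has a replicate, and a difference between lines cannot be told apart from a difference between conditions.

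Retinoic acid is made from vitamin A. Retinol is oxidised to retinal, and retinaldehyde dehydrogenases of the ALDH1A family oxidise retinal to retinoic acid. Inside the cell CRABP proteins carry it to the nucleus or to CYP26 enzymes, which hydroxylate and clear it, and in the nucleus it binds the RAR receptors, which sit on DNA as heterodimers with RXR. RARB and CYP26A1 are textbook direct targets of these receptors. TCF7L1 is a DNA-binding factor of the Wnt pathway that mostly represses its targets, and ALDH1A1 is widely used as a marker of stem-like cells in colorectal tumours.

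The libraries held 24190426 (vector), 17466191 (TCF7L1) and 20328324 (TCF7L1-MUT) counts in genes. The study lists a somewhat lower RNA integrity number, a score of RNA quality, for vector than for the other libraries, and its part was not tested. Counts of the TCF7L1 gene were 496 (vector), 10723 (TCF7L1) and 2529 (TCF7L1-MUT), and so the gene was higher in both libraries labelled as carrying the cDNA, but less so for the mutant (log2 fold change of 2.29 for TCF7L1 over TCF7L1-MUT). Thus the comparison of TCF7L1 with TCF7L1-MUT joins a difference in the DNA-binding domain with one in the level of the transcript, and the 2 cannot be told apart. Of 12 colorectal epithelial markers, 5 reached 1 FPKM (counts scaled to gene length and library size) in every library. TFF3 had no count in any library, CDX1 had 1 count at most, and VIL1, CDH17, LGALS4 and GPA33 had at most 9. The summed FPKM of the 12 markers was 139 in vector, 231 in TCF7L1 and 202 in TCF7L1-MUT. EPCAM, KRT8 and KRT18 made up most of it and were higher in both cDNA libraries than in vector, while CDH1 (5.13, 3.53 and 3.57 FPKM) and CDX2 (9.81, 6.55 and 7.69 FPKM) were lower in both. All 8 genes of a list typical of the HEK293 embryonic kidney line were detected in all libraries, and their summed FPKM was 269 in vector, 60.4 in TCF7L1 and 94.1 in TCF7L1-MUT. IRS4, the most abundant of them, had 20748, 2704 and 3882 counts in that order, and without it the sum of the other 7 was 60.3, 20.4 and 45.0 FPKM. Against vector, 7 of the 8 genes were lower in TCF7L1, and PAX2 was higher by a log2 fold change of 0.34. In TCF7L1-MUT all 8 lay below vector, but LIN28B (-0.30), NEFM (-0.23) and PAX2 (-0.08) by little. The sum of 8 fibroblast markers was 19.1, 14.0 and 14.8 FPKM, and COL1A1 made up most of it (16.1, 12.9 and 12.5 FPKM). LUM (2.12, 0.386 and 1.37 FPKM), PDGFRA and DCN were also highest in vector, while PDGFRB (0.505, 0.618 and 0.753 FPKM) was lowest there. COL1A2, THY1 and FAP had at most 7 counts. The embryonic kidney and fibroblast sums were thus highest in the vector library, as were the retinoic acid genes that differed most. The part of either list in the results below was not tested.

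Levels are given as FPKM, which is scaled to gene length and can be set side by side between genes, and differences as log2 ratios of counts scaled by the trimmed mean of M-values (TMM). Intervals are exact 95% intervals (Poisson for a level, Clopper-Pearson for a ratio) and cover counting error only, not the variation between cultures. A gene was called where the log2 fold change passed 2 in either direction, which is 4-fold, and the interval did not hold 0. These calls describe 3 libraries and are not a test of the conditions. In bulk RNA, fewer cells of a type and less RNA per cell cannot be told apart.

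The clearest differences lay in the synthesis enzymes ALDH1A1 and ALDH1A2 and the receptor RARB, which were 15.6-fold, 13.5-fold and 4.64-fold lower with TCF7L1 than with the empty vector. The TCF7L1-MUT library lay between the other two for all 3 genes. ALDH1A3, CRABP2, RARA and RARG, the members with the highest levels, differed by less than 2-fold in every comparison. Thus 3 of the 8 compared members were called lower and 0 were called higher in TCF7L1 against vector, where 4.37% of all 22902 genes compared were called lower and 0.926% higher. In TCF7L1-MUT against vector 0 members were called, against 2.04% of all genes lower and 0.790% higher. In TCF7L1 against TCF7L1-MUT 2 members, ALDH1A1 and ALDH1A2, were called lower and 0 higher, against 1.82% and 0.956% of all genes.

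**Figure D1:**
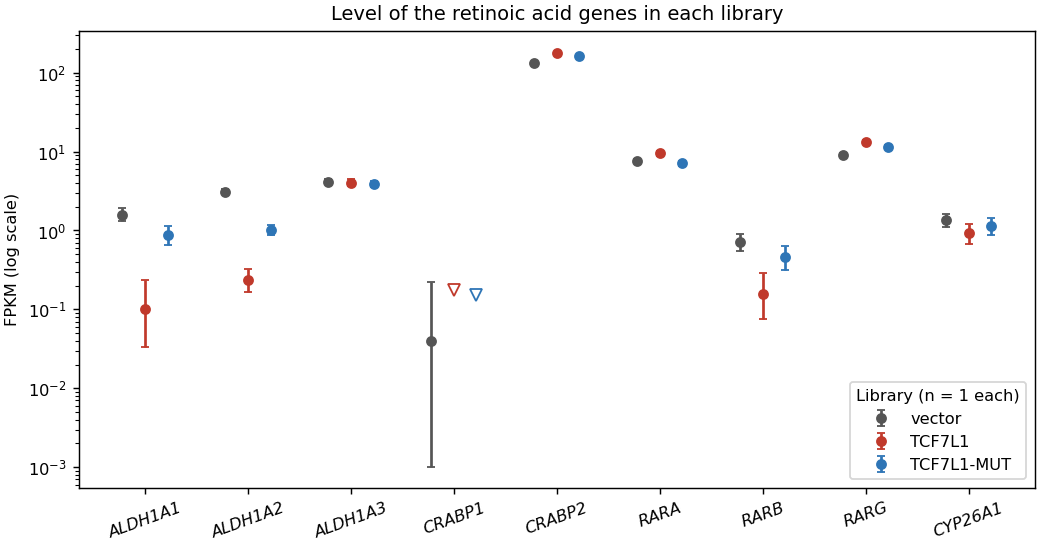
Level of each of the 9 genes in FPKM (log axis) in the vector, TCF7L1 and TCF7L1-MUT libraries, 1 library each. Points are the deposited FPKM, bars are 95% Poisson intervals that cover counting error only, and open triangles mark the level that 3 counts would give where CRABP1 had 0 counts. CRABP2 lay above 100 FPKM in every library, while ALDH1A1, ALDH1A2 and RARB were lowest in the TCF7L1 library. CYP26A1 was also lowest there, but its intervals overlapped.

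ALDH1A1 (ENSG00000165092, GRCh38 chr9:72900662-73080442, minus strand) encodes a cytosolic retinaldehyde dehydrogenase. It had 114 counts in vector, 5 in TCF7L1 and 50 in TCF7L1-MUT, and its level was 1.58 FPKM (95% interval 1.31 to 1.90), 0.102 FPKM (0.0331 to 0.238) and 0.873 FPKM (0.648 to 1.15). The 3 intervals did not overlap, with vector highest and TCF7L1 lowest. The log2 fold change was -3.96 (-5.64 to -2.73) for TCF7L1 against vector, -0.87 (-1.38 to -0.38) for TCF7L1-MUT against vector and -3.09 (-4.80 to -1.80) for TCF7L1 against TCF7L1-MUT. The wide intervals of the first and last of these came with the 5 counts in the TCF7L1 library. The DNA just upstream of the RefSeq start site (GRCh38.p14, chr9:72953064-72953303, minus strand, from 250 to 11 bases before the start) is shown because it holds 2 matches to the core that TCF factors bind, CTTTGA or CTTTGT on either strand. The capitals mark these matches, the farther one 237 to 232 bases and the nearer one 145 to 140 bases before the start.
ALDH1A1: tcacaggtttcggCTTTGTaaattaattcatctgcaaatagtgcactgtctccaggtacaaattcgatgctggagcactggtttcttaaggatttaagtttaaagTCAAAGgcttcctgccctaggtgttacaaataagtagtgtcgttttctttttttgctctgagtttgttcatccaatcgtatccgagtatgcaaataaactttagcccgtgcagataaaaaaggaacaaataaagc

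ALDH1A2 (ENSG00000128918, chr15:57953424-58497866, minus strand) encodes the retinaldehyde dehydrogenase that makes most retinoic acid in the early embryo. It had 679 counts in vector, 35 in TCF7L1 and 177 in TCF7L1-MUT, or 3.12 FPKM (2.89 to 3.36), 0.236 FPKM (0.164 to 0.328) and 1.02 FPKM (0.876 to 1.18). The order was that of ALDH1A1, and again no interval overlapped another. TCF7L1 was below vector by a log2 fold change of -3.76 (-4.29 to -3.27) and below TCF7L1-MUT by -2.13 (-2.70 to -1.61). TCF7L1-MUT was below vector by -1.62 (-1.87 to -1.38). ALDH1A2 was the 1 member past a lower log2 threshold of 1 in TCF7L1-MUT against vector, where 6.87% of all genes were that far lower. AC012653.2, a transcript annotated on the same strand within ALDH1A2, had 22, 2 and 1 counts, fewer than ALDH1A2 in each library. The 30 bases that lie 20 to 49 bases past a RefSeq start of ALDH1A2 (chr15:58013974-58014003, minus strand) hold a match to the TCF core, shown in capitals.
ALDH1A2: aacaggcagatatagACAAAGcagtgcagg

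ALDH1A3 (ENSG00000184254, chr15:100877714-100916626, plus strand), the third retinaldehyde dehydrogenase of the family, had 608 counts in vector, 400 in TCF7L1 and 453 in TCF7L1-MUT. Its level was 4.17 FPKM (3.84 to 4.51), 4.02 FPKM (3.64 to 4.44) and 3.90 FPKM (3.55 to 4.28), and all 3 intervals overlapped. The log2 fold changes were -0.09 (-0.27 to 0.10), -0.11 (-0.29 to 0.07) and 0.02 (-0.17 to 0.22) for TCF7L1 against vector, TCF7L1-MUT against vector and TCF7L1 against TCF7L1-MUT. These intervals hold 0 and leave no room for a 2-fold difference by counting error alone. The opposite-strand gene AC015712.2, which overlaps ALDH1A3, had 64, 47 and 35 counts.

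Since ALDH1A3 was level while its 2 relatives were not, the make-up of the family differed between the libraries. Of the summed FPKM of the ALDH1A genes, ALDH1A3 made up 47.0% in vector, 92.3% in TCF7L1 and 67.3% in TCF7L1-MUT. The share of ALDH1A2 was 35.1%, 5.40% and 17.6%, and that of ALDH1A1 was 17.9%, 2.34% and 15.1%. The summed level was 8.87 FPKM in vector, 4.36 in TCF7L1 and 5.80 in TCF7L1-MUT. On the summed counts, TCF7L1 was below vector by a log2 fold change of -1.15 (-1.31 to -0.997), a smaller difference than that of ALDH1A1 or ALDH1A2 alone.

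**Figure D2:**
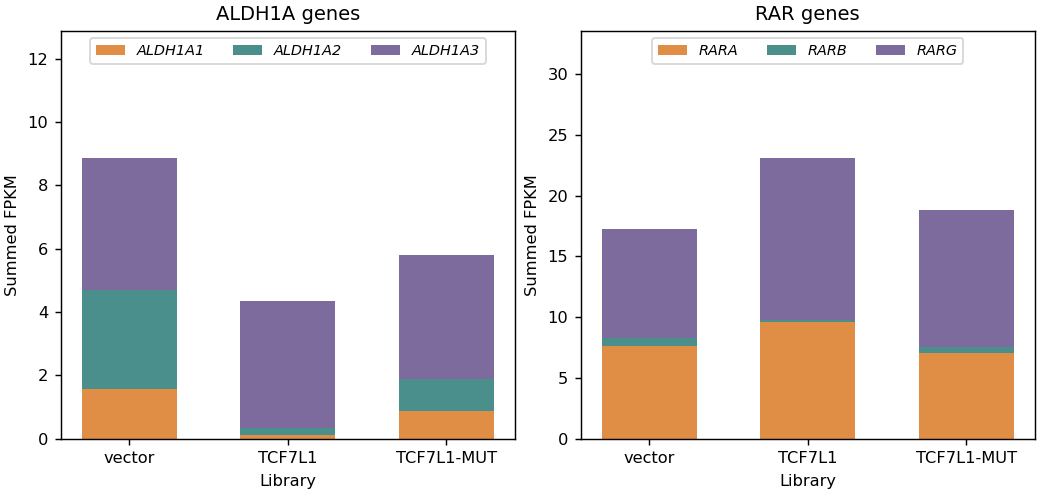
Summed FPKM of the ALDH1A genes (left) and the RAR genes (right) in each library, 1 library each, stacked by gene. ALDH1A3 makes up 92.3% of the ALDH1A sum in the TCF7L1 library against 47.0% in the vector library, and RARB is the smallest part of the RAR sum in all 3 libraries.

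The binding proteins stood at opposite ends of the range of levels. CRABP2 (ENSG00000143320, chr1:156699606-156705816, minus strand), which delivers retinoic acid to RAR receptors in the nucleus, had 3728 counts in vector, 3351 in TCF7L1 and 3562 in TCF7L1-MUT, or 134, 177 and 161 FPKM. This was above 99.0% of protein-coding genes in vector, 99.1% in TCF7L1 and 99.0% in TCF7L1-MUT. CRABP2 was higher in TCF7L1 than in vector by a log2 fold change of 0.36 (0.30 to 0.43), and higher in TCF7L1-MUT than in vector by 0.25 (0.18 to 0.32). The difference between TCF7L1 and TCF7L1-MUT was 0.11 (0.05 to 0.18). These intervals are narrow because of the counts behind them, and the differences were far from the 4-fold threshold. CRABP1 (ENSG00000166426, chr15:78340324-78348230, plus strand), the relative associated with retinoic acid breakdown, had 1 count in vector and 0 in the other two libraries. The floor of 3 counts corresponds to 0.175 FPKM in TCF7L1 and 0.150 FPKM in TCF7L1-MUT, the upper limits of the exact Poisson intervals were 0.216 and 0.185 FPKM, and no comparison was made.

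Of the 3 receptors, RARB was the least abundant and the 1 that was called. RARB (ENSG00000077092, chr3:25174332-25597932, plus strand) had 67 counts in vector, 10 in TCF7L1 and 34 in TCF7L1-MUT, or 0.717 FPKM (0.556 to 0.911), 0.157 FPKM (0.0753 to 0.289) and 0.457 FPKM (0.317 to 0.639). The TCF7L1 interval lay below the other two, and those of vector and TCF7L1-MUT overlapped. The log2 fold change of TCF7L1 against vector was -2.21 (-3.35 to -1.26), so its interval runs to either side of the threshold of 2. TCF7L1 was below TCF7L1-MUT by -1.55 (-2.75 to -0.51), and TCF7L1-MUT was below vector by -0.66 (-1.30 to -0.05). Neither of these was called. TOP2B, a topoisomerase gene on the opposite strand that overlaps RARB, had 4924, 3432 and 3837 counts and log2 fold changes between -0.04 and 0.04 in the 3 comparisons. Whether the counting used strand is not given in the sources used here, so reads of RARB and TOP2B in their overlap could not be told apart.

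RARB has several RefSeq start sites, and its windows (250 bases before to 50 after each start) are shown in part because they hold both motifs searched. Retinoic acid receptors bind repeats of a half-site, searched as AGGTCA or AGTTCA or GGGTCA or GGTTCA on either strand. A DR5 is a pair of half-sites in the same direction with 5 bases between them, the form of the textbook response elements of RARB and CYP26A1. The first stretch below (chr3:25428204-25428233, plus strand) lies 59 to 30 bases before a start of RARB, with the whole DR5 in capitals. The second (chr10:93073797-93073826, plus strand) lies 96 to 67 bases before a start of CYP26A1, with its DR5 read on the opposite strand. The last pair lie 61 to 32 bases before another start of RARB (chr3:25340741-25340770) and 198 to 169 bases before a further one (chr3:25458112-25458141), with the TCF core in capitals. The window of the former start holds 2 core matches and that of the latter 3, not all of them shown. The RARB window with the DR5 holds no core match.
RARB, DR5: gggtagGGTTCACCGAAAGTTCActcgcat
CYP26A1, DR5: taaagaTGAACTTTGGGTGAACTaattgtc
RARB, TCF core, 61 to 32 bases before a start: gaaggaagtaggTCAAAGcctggcaaggaa
RARB, TCF core, 198 to 169 bases before a start: taaaataacaacCTTTGAactgataattac

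All 9 members had at least 1 start site in RefSeq, 16 windows in all. The TCF core was found in 4 of the 16 windows, those of ALDH1A1, ALDH1A2 and RARB, and in 26.2% of 35116 windows of all genes. A half-site was found in 7 windows of 5 members (ALDH1A2, CRABP2, CYP26A1, RARA and RARB), against 38.6% of all windows. The DR5 was rarer, in the windows of RARB and CYP26A1 and in 31 windows, or 0.0883%, of all genes. For the TCF core, 4 of 16 windows is close to the share over all windows. The 3 members that hold it were also the 3 called lower. Members differ in the number of windows searched, so a count by gene and a share of windows are not alike. The share of all genes with a match was not computed, and a link between the motif and the calls was not tested. These matches are descriptions of the sequence, and binding was not measured in these libraries. The study mapped TCF7L1 binding in HCT116 cells by ChIP-seq, and those data were not used here.

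RARG (ENSG00000172819, chr12:53210567-53232980, minus strand) and RARA (ENSG00000131759, chr17:40309192-40357643, plus strand) encode the other two receptors. RARG had 1161 counts in vector, 1183 in TCF7L1 and 1163 in TCF7L1-MUT, or 8.96 FPKM (8.45 to 9.49), 13.4 FPKM (12.6 to 14.2) and 11.3 FPKM (10.6 to 11.9). Its counts were nearly equal, but the libraries differ in depth, and TCF7L1 was above vector by a log2 fold change of 0.55 (0.43 to 0.66) and above TCF7L1-MUT by 0.23 (0.11 to 0.34). TCF7L1-MUT was above vector by 0.32 (0.20 to 0.44). RARA had 909, 780 and 674 counts, or 7.60 FPKM (7.12 to 8.12), 9.57 FPKM (8.91 to 10.3) and 7.08 FPKM (6.56 to 7.64). It was highest in TCF7L1, with a log2 fold change of 0.30 (0.16 to 0.44) against vector and 0.41 (0.26 to 0.56) against TCF7L1-MUT, and the intervals of vector and TCF7L1-MUT overlapped, with a difference of -0.12 (-0.26 to 0.03). RARA-AS1, on the opposite strand, had 36, 15 and 18 counts.

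With RARB a small part of the receptor pool, the RAR sum did not follow it. The summed level of the RAR genes was 17.3 FPKM in vector, 23.1 in TCF7L1 and 18.8 in TCF7L1-MUT, and RARB made up 4.15%, 0.679% and 2.43% of it. RARG made up 51.9%, 57.9% and 59.9%, and RARA the rest. On summed counts TCF7L1 was above vector by a log2 fold change of 0.40 (0.31 to 0.49), the opposite direction to RARB.

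CYP26A1 (ENSG00000095596, chr10:93073475-93077890, plus strand), the cytochrome P450 that clears retinoic acid, had 101 counts in vector, 47 in TCF7L1 and 68 in TCF7L1-MUT. Its level was 1.35 FPKM (1.10 to 1.63), 0.918 FPKM (0.675 to 1.22) and 1.14 FPKM (0.884 to 1.44). The order was again vector, TCF7L1-MUT and TCF7L1, but every interval overlapped the others. TCF7L1 was below vector by a log2 fold change of -0.58 (-1.12 to -0.07). The values of -0.25 (-0.72 to 0.20) for TCF7L1-MUT against vector and -0.33 (-0.90 to 0.23) for TCF7L1 against TCF7L1-MUT had intervals that hold 0.

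**Figure D3:**
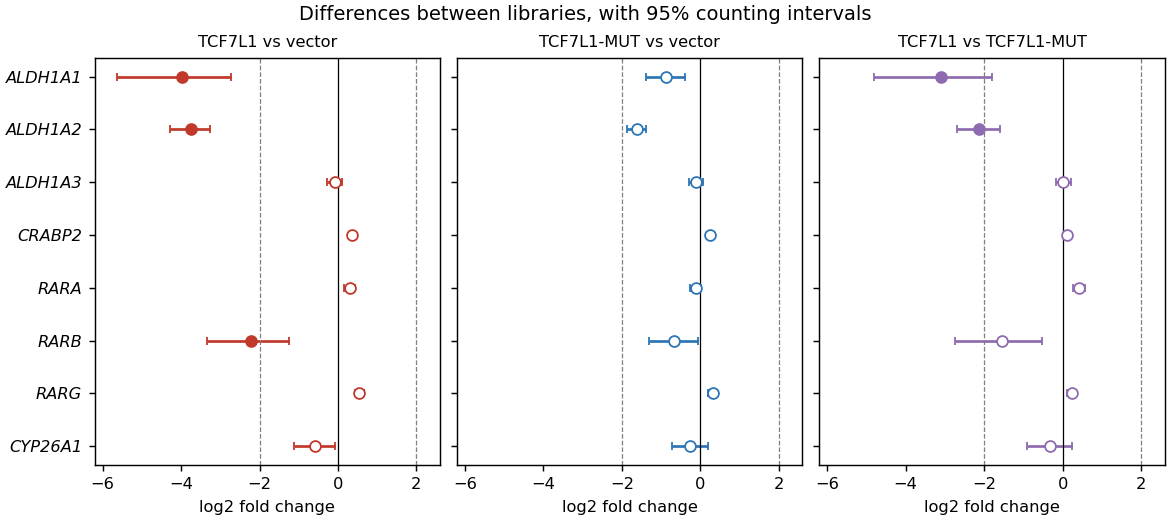
Log2 fold change of the 8 compared members in TCF7L1 against vector, TCF7L1-MUT against vector and TCF7L1 against TCF7L1-MUT, with 95% Clopper-Pearson intervals that cover counting error only. Filled points passed the call rule (dashed lines at -2 and 2), which are ALDH1A1, ALDH1A2 and RARB on the left, none in the middle and ALDH1A1 and ALDH1A2 on the right.

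Across the 8 members, the median log2 fold change was -0.34 in TCF7L1 against vector, where that of all genes compared was -0.06. It was -0.19 in TCF7L1-MUT against vector (all genes -0.04), and -0.15 in TCF7L1 against TCF7L1-MUT (all genes -0.02). By the intervals alone, 4 members were lower, 3 higher and 1 undecided in TCF7L1 against vector, where 28.2% of all genes were lower and 24.5% higher. In TCF7L1-MUT against vector 3 were lower, 2 higher and 3 undecided (25.6% and 22.8% of all genes), and in TCF7L1 against TCF7L1-MUT 3 were lower, 3 higher and 2 undecided (19.0% and 17.0%). Members with many counts have narrow intervals, so these counts depend on level as well as on the size of a difference. With the lower threshold of a log2 fold change of 1, ALDH1A1, ALDH1A2 and RARB were the 3 members that far lower in TCF7L1, both against vector (11.0% of all genes) and against TCF7L1-MUT (4.53%). The order vector, TCF7L1-MUT, TCF7L1 from highest to lowest was taken by 4 of 8 members (ALDH1A1, ALDH1A2, RARB and CYP26A1) and by 25.9% of all genes compared. The comparisons of TCF7L1 and of TCF7L1-MUT with vector share the vector library, so their values stand side by side and are not independent.

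The remaining retinoid pathway was read from 7 lists of 54 other genes, also chosen with earlier results known, of which 43 were compared. In TCF7L1 against vector 4 of the 43 were called lower and 0 higher (4.37% and 0.926% of all genes), and the median log2 fold change was -0.12. In TCF7L1-MUT against vector 1 was called lower and the median was -0.14, and in TCF7L1 against TCF7L1-MUT 1 was called lower and the median was -0.03. A count of 1 in 43 is close to the 2.04% and 1.82% of all genes called lower in these comparisons. Upstream of the ALDH1A step, BCO1, which cleaves beta-carotene into retinal, had 39 counts in vector, 1 in TCF7L1 and 10 in TCF7L1-MUT. Its log2 fold change was -4.63 (-10.11 to -2.20) in TCF7L1 against vector, -1.64 (-2.82 to -0.62) in TCF7L1-MUT against vector and -2.99 (-8.56 to -0.31) in TCF7L1 against TCF7L1-MUT. RBP4, the plasma carrier of retinol, had 20 counts in vector and 0 in both other libraries, so it was at least 4.66-fold lower in TCF7L1 and at least 5.36-fold lower in TCF7L1-MUT, taking 3 counts per library as the floor. The 95% counting intervals, which also cover the error of the 20 counts, reached down to 3.45-fold and 3.97-fold. ALDH1L1, a relative of the ALDH1A genes that acts on folate and not on retinal, had 110, 9 and 30 counts and a log2 fold change of -3.08 (-4.26 to -2.12) in TCF7L1 against vector.

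Of the other 12 retinol and retinal enzymes compared beside BCO1, 0 were called. In TCF7L1 against vector 4.37% of all genes were called lower and 0.926% higher, so 0 of 12 does not set these enzymes apart. DHRS3, which reduces retinal back to retinol and is itself a response gene, had 282, 128 and 221 counts and was below vector by -0.62 (-0.93 to -0.32) in TCF7L1 and by -0.04 (-0.30 to 0.22) in TCF7L1-MUT. CYP26B1, a second retinoic acid hydroxylase, had 1245, 1003 and 849 counts and a level of 9.83, 11.6 and 8.42 FPKM, several times that of CYP26A1. Its log2 fold change was 0.21 (0.08 to 0.33) in TCF7L1 and -0.24 (-0.36 to -0.11) in TCF7L1-MUT against vector. Of the RXR partners of the RAR receptors, RXRA had 1258, 1174 and 1054 counts and RXRB 2275, 1345 and 1832. RXRA was above vector by 0.42 (0.30 to 0.53) in TCF7L1, and RXRB was below it by -0.24 (-0.34 to -0.14). RXRG, named after its values were seen, had 41, 12 and 11 counts and was below vector by -1.25 (-2.32 to -0.30) in TCF7L1 and by -1.57 (-2.69 to -0.60) in TCF7L1-MUT, past the lower threshold of 1 in both. Past that threshold in TCF7L1 against vector, 8 of the 43 pathway genes were lower and 2 higher, against 11.0% and 3.27% of all genes. The 2 higher ones, also named after their values were seen, were RBP7, a cellular retinol-binding protein (146, 261 and 249 counts, log2 fold change of 1.36), and FABP5, a fatty acid carrier that also binds retinoic acid (1689, 2621 and 2625 counts, 1.15). None of the 3 RXR genes or the 8 coregulators was called in any comparison, which with so few genes does not set them apart either. By the intervals alone, 4 of the 8 coregulators were lower and 2 higher in TCF7L1 against vector (28.2% and 24.5% of all genes). NCOR1 and NRIP1, named after their values were seen, were past the lower threshold there, as were 11.0% of all genes. NCOR1 had 5258, 1419 and 2338 counts and log2 fold changes against vector of -1.37 (-1.46 to -1.29) in TCF7L1 and -0.85 in TCF7L1-MUT. Those of NRIP1 (271, 66 and 118 counts) were -1.52 (-1.93 to -1.13) and -0.88.

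Of the 13 textbook retinoic acid response genes compared outside the members, 8 had intervals below 0 and 3 above 0 in TCF7L1 against vector, where these shares were 28.2% and 24.5% of all genes, and their median log2 fold change was -0.66 (all genes -0.06). The median was -0.37 in TCF7L1-MUT against vector and -0.25 in TCF7L1 against TCF7L1-MUT. MEIS1, a homeobox gene, was the 1 called: it had 272 counts in vector, 41 in TCF7L1 and 162 in TCF7L1-MUT, with a log2 fold change of -2.21 (-2.72 to -1.73) in TCF7L1 against vector and -0.43 (-0.72 to -0.15) in TCF7L1-MUT against vector. The summed embryonic kidney list was also lower in both libraries than in vector (60.4 and 94.1 against 269 FPKM, or 20.4 and 45.0 against 60.3 without IRS4), and its part in these values was not tested.

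**Figure D4:**
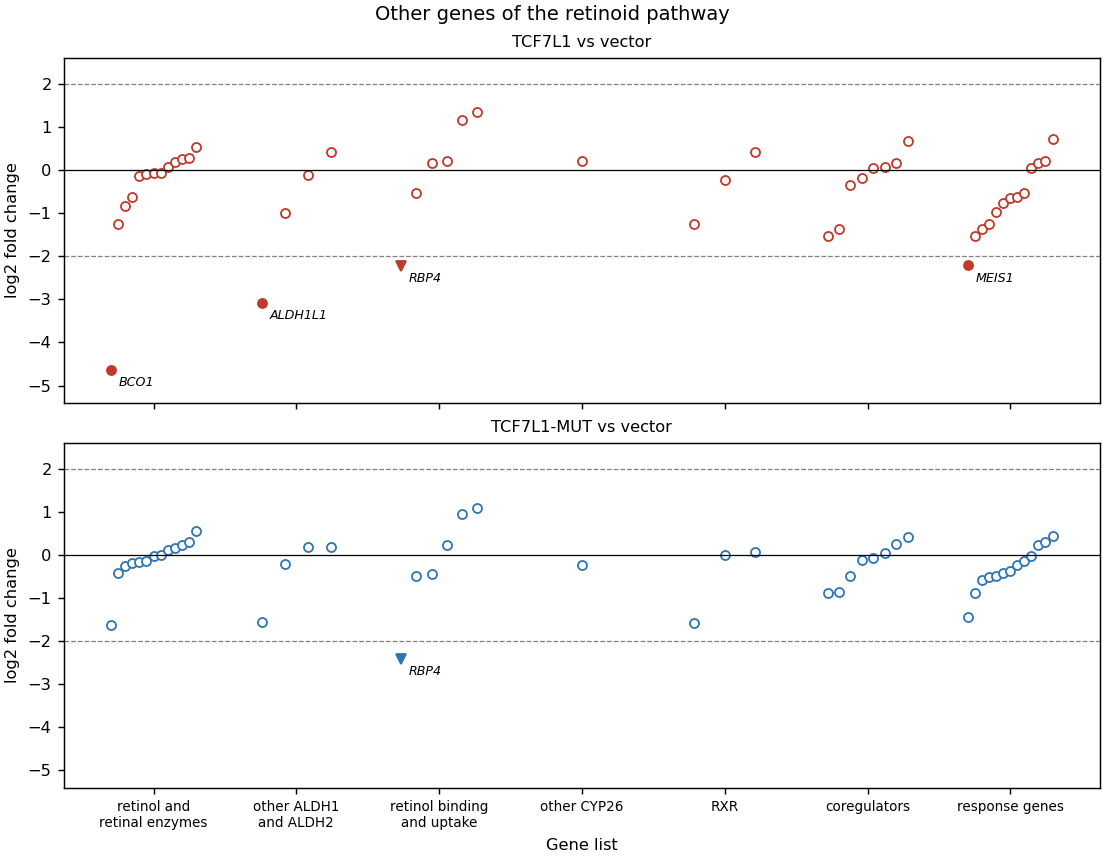
Log2 fold change against vector of the 43 other pathway genes by list, for TCF7L1 (top) and TCF7L1-MUT (bottom), where a gene in 2 lists is drawn in both. Filled points passed the call rule (dashed lines at -2 and 2) and are named, and RBP4, with 0 counts in both libraries, is drawn as a triangle at the bound that 3 counts give.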

How the data were processed

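The 3 RNA-seq libraries were made with a NEBNext Ultra kit, and whether counting used strand is not given in the sources used here. According to the submitters' processing notes and the study's methods, the authors used STAR 2.5 for alignment to hg38 (GRCh38), HTSeq 0.6.1 for the counts of each gene and edgeR 3.16.5. The deposited table holds raw counts per gene and FPKM. The deposited FPKM equal counts divided by gene length and an adjusted library size, within 0.1% for 100% of genes with at least 20 counts. The column labelled DBD was taken as TCF7L1-MUT, the only sample it could name. There were 0 per-sample columns outside the series and no columns of the authors' own comparisons.

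Counts were scaled by TMM in edgeR 4.0.16 (R 4.3.3) and compared for genes with at least 10 counts over the 3 libraries, with a prior count of 0.125 and exact 95% Clopper-Pearson intervals (scipy 1.17.1). With 1 library per condition, edgeR's quasi-likelihood test could not be fitted, and no p-value is given. Genes were called past a log2 fold change of 2 with an interval without 0. This rule was run on simulated counts that held Poisson counting error only, with differences given only to genes with many counts. That run says nothing of variation between cultures or of differences in genes with few counts. The libraries held 17466191 to 24190426 counts, so a gene with 5 counts has a wide interval. Named were all 9 members, each pathway gene called in any comparison, RXRA, RXRB, CYP26B1 and DHRS3, markers of cell type and genes that overlap members. RXRG, RBP7, FABP5, NCOR1 and NRIP1 were named after their values were seen. Markers were summed as FPKM. The members and gene lists were chosen with earlier results of these data known. Sequences and start sites come from RefSeq (GRCh38.p14), in which all 9 members were matched by symbol. Alternatives were DESeq2 1.42.0 size factors, library size alone, other filters, prior counts and thresholds, thinning to the smallest library, log2 of FPKM with a pseudocount, and edgeR's exact test with an assumed dispersion.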

Additional observations from a re-analysis of the deposited data

How the results depend on the processing

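No paired analysis was possible because each condition has 1 library and the labels carry no replicate numbers, and for the same reason no library could be left out. No compared member changed the sign of its log2 fold change under any alternative run. The number of members called in TCF7L1 against vector was 3 and fell to 0 on log2(FPKM + 1), which shrinks low levels. In TCF7L1-MUT against vector it was 0 and became 1 with a log2 threshold of 1. In TCF7L1 against TCF7L1-MUT it was 2 and became 0 with an assumed dispersion of 0.1, 0 on log2(FPKM + 1) and 1 on log2(FPKM + 0.1). RARB lost its call in TCF7L1 against vector with an assumed dispersion of 0.1, on log2(FPKM + 1) (-0.57) and on log2(FPKM + 0.1) (-1.67).

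The number of pathway genes called in TCF7L1 against vector was 4, and became 10 (8 lower and 2 higher) with a threshold of 1, 2 with a dispersion of 0.1, 0 on log2(FPKM + 1) and 2 on log2(FPKM + 0.1). In TCF7L1-MUT against vector it was 1, and became 0 with a minimum of 1 CPM, 5 with a threshold of 1, 0 with a dispersion of 0.1 and 0 on log2(FPKM + 1). In TCF7L1 against TCF7L1-MUT it was 1, and became 4 with a threshold of 1 and 0 with a dispersion of 0.04 or 0.1, a prior count of 2, and either FPKM scale. Over all genes, the number called lower in TCF7L1 against vector was 1000, and became 597 with a minimum of 1 CPM, 2511 with a threshold of 1, 598 and 189 with a dispersion of 0.04 and 0.1, 41 on log2(FPKM + 1) and 447 on log2(FPKM + 0.1). Under the same settings the number called higher, 212, became 64, 749, 60, 18, 4 and 95, and 100 with a prior count of 2. With those 7 settings in the same order, calls in TCF7L1-MUT against vector went from 467 lower to 154, 1574, 107, 8, 9, 161 and 237, and from 181 higher to 37, 585, 26, 4, 5, 67 and 86 (296 with no filter). In TCF7L1 against TCF7L1-MUT they went from 417 lower to 184, 1038, 95, 11, 7, 167 and 298, and from 219 higher to 56, 447, 29, 6, 7, 133 and 112. As a share of raw counts, not divided by gene length, ALDH1A2 led the ALDH1A genes in vector with 48.5%, ahead of ALDH1A3 with 43.4% and ALDH1A1 with 8.14%. Other than in the construction of each setting, causes of these changes were not tested. Depth limits ALDH1A1 (5 counts in TCF7L1), RARB (10 counts) and CRABP1 (0 or 1 count), and variation between cultures was not measured.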
